A study of Mus musculus with 12 samples.

Results

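The 9 genes described here are the cadherins Cdh1 and Cdh2, the surface protein gene Epcam, the intermediate filament gene Vim, and 5 transcription factors of the epithelial-mesenchymal transition, Snai1, Snai2, Zeb1, Zeb2 and Twist1. They were taken by symbol, whatever their values, and all 9 were found among 24881 symbols with an FPKM value (fragments scaled by transcript length and by the mapped fragments of the library). The values come from RNA-seq of mouse R1 embryonic stem cells (ESCs) carrying FUCCI, fluorescent reporters of cell-cycle phase, sorted in G1 phase. There were 4 groups of 2 libraries each: WT and P53-/- ESCs grown with serum and LIF (serum), and WT and P53-/- ESCs grown in 2i, which is N2B27 medium with LIF and the inhibitors PD0325901 of MEK and CHIR99021 of GSK3. P53-/- ESCs were made by CRISPR/Cas9 targeting of an exon of Trp53, and 2 clones were sequenced without a record of which library is which clone, so that clone and replicate cannot be told apart. Nothing says whether the 2 libraries of WT ESCs came from separate cultures, so p values measure the spread between these libraries only.

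Cdh1 encodes E-cadherin, the calcium-dependent adhesion protein of epithelia, which binds the same protein on a neighboring cell and is tied through catenins to the actin cytoskeleton. In the epithelial-mesenchymal transition, cells lose E-cadherin and gain N-cadherin (Cdh2) and vimentin (Vim), and factors of the Snail, Zeb and Twist families bind E-box sequences and repress Cdh1. Mouse ESCs grow as compact colonies held by E-cadherin, and the serum and 2i conditions keep them in different pluripotent states.

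The labels and depth were checked first. Trp53 stood at 77.6 and 75.1 FPKM in WT serum, 16.8 and 3.68 in P53-/- serum, 26.8 and 33.7 in WT 2i, with 7.25 and 1.88 in P53-/- 2i, so every P53-/- library lay below both WT libraries of its culture. The decrease was called in 2i (adjusted p = 0.0547 by limma) and not in serum (adjusted p = 0.150), where the log2 change was -3.26 against -2.98 in 2i (SE 0.74 in both) and the unadjusted p was 0.00242 against 0.00399. Depth, estimated from the smallest steps between FPKM values, was about 5200000 to 13000000 fragments, with 5200000 to 9500000 in the libraries in 2i and 7000000 to 13000000 in those in serum. All 12 markers of pluripotent cells were measured, with a summed level of 3800 to 4590 FPKM in a library. Of 10 markers of fibroblasts and feeder cells, 8 stayed under 1 FPKM in all libraries and Col3a1, Postn and Fap were at 0 in all. Their summed level was 8.31 to 11.7 FPKM in serum and 1.75 to 2.83 in 2i, and its largest part was Thy1 in the serum libraries and Pdgfrb in those in 2i. Summed levels were 12.2 to 37.2 FPKM for primitive endoderm, 2.61 to 5.93 for mesoderm and primitive streak, 22.9 to 41.7 for neural progenitor and 8.1 to 15.3 for trophoblast markers. None of 12 housekeeping genes was at 0 in any library, but their summed level was 5570 to 6570 FPKM in serum and 11100 to 12100 in 2i. Whether these differences had a part in the results was not tested.

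The 9 genes fell into a high and a low class. Epcam had a mean over the 8 libraries of 70.3 FPKM, Cdh1 of 63.7 and Vim of 46.2, which placed all of them at or above the 92.4 percentile of all symbols. Twist1 followed at 3.22 FPKM and Zeb1 at 1.99. Snai1 (0.432 FPKM), Cdh2 (0.179), Zeb2 (0.104) and Snai2 (0.0673) were below the mean of 0.5 FPKM required for testing. The ESCs of all 4 groups thus held abundant transcripts of both epithelial surface genes and of vimentin, next to sparse transcripts of N-cadherin and of the Snail and Zeb2 factors.

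**Figure D1:**
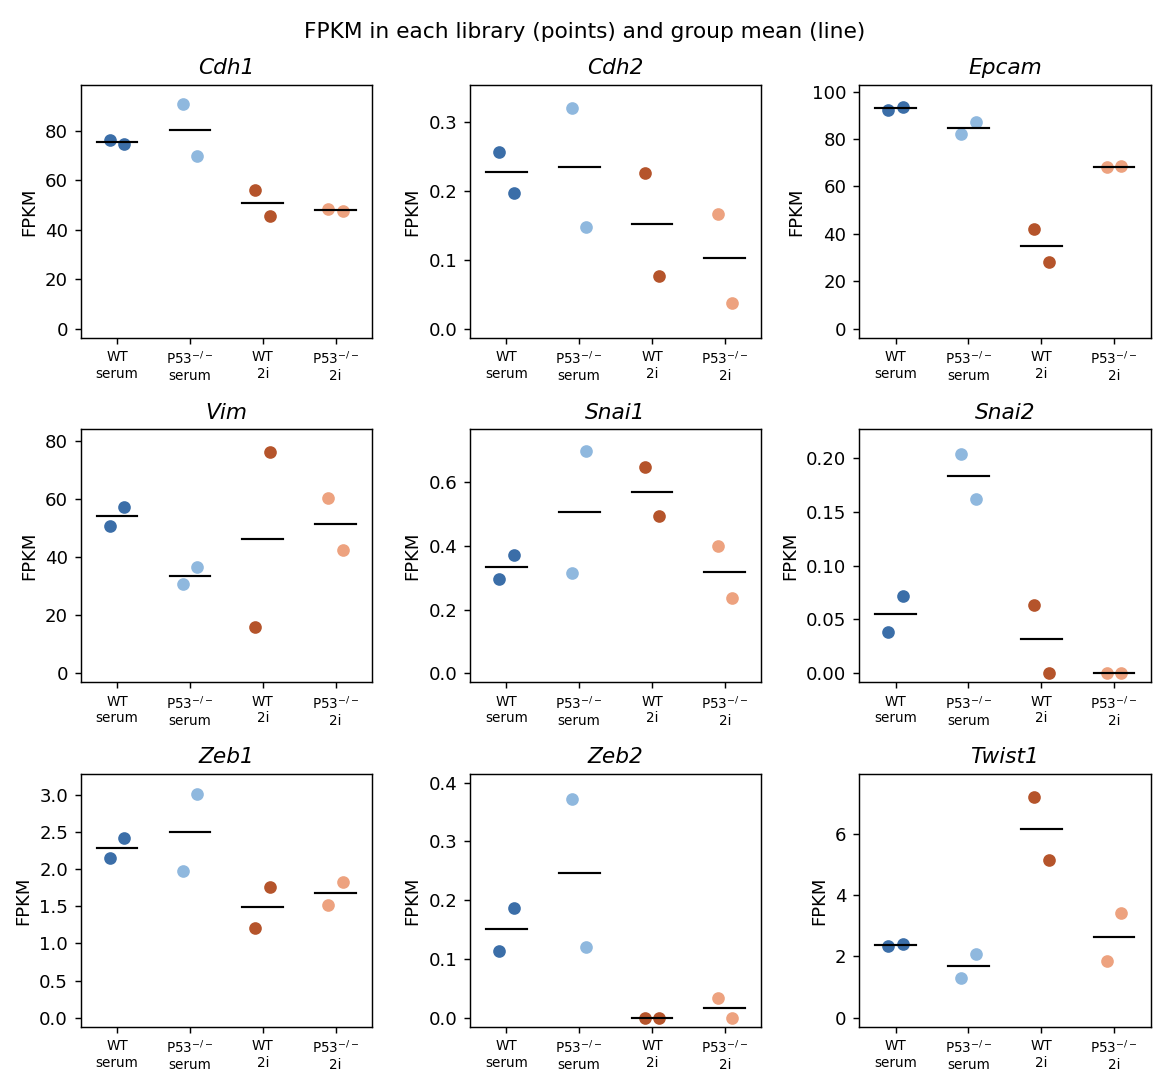
FPKM of the 9 genes (y axes, linear, a scale of its own for each gene) in each library (points) of the 4 groups on the x axis, with the group mean as a line. Epcam is lowest in the 2 WT 2i libraries (42.0 and 28.0), Twist1 is highest there (7.21 and 5.14), and the 2 WT 2i values of Vim (16.0 and 76.1) lie far apart.

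In 2i compared with serum, 2 of the 5 tested genes were called in WT ESCs and 1 in P53-/- ESCs, where a call by limma needed a fold change over 1.5 with an adjusted p below 0.1. In WT ESCs these were Epcam, which fell, and Twist1, which rose. In P53-/- ESCs it was Cdh1, which fell. Among all 12572 genes tested, 27.2% were called higher and 28.6% lower in 2i in WT ESCs, and 28.0% higher and 30.1% lower in P53-/- ESCs, so the shares of 2 in 5 and 1 in 5 were not above this background. Loss of P53 in 2i gave 2 calls, a higher level of Epcam and a lower level of Twist1, against backgrounds of 4.36% of all genes called higher and 5.97% called lower. Loss of P53 in serum gave none, where 0.135% of all genes were called higher and 0.883% lower, and none of the 5 genes had an unadjusted p under 0.05 there. The difference of the P53 effect between the cultures gave no call among the 5 genes in limma, where 0.207% of all genes were called, and 1 of them, Epcam, had an unadjusted p under 0.05. The WT 2i libraries enter both the comparison of cultures in WT ESCs and the comparison of genotypes in 2i, so those values share their samples. The 2 libraries of one group lay wholly above or below those of the other in 81.7% of tested genes between cultures in WT and 81.8% in P53-/- ESCs. Between genotypes this share was 53.6% in 2i and 47.5% in serum. These shares are for 2 groups at a time, and none was computed for more groups at once.

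**Figure D2:**
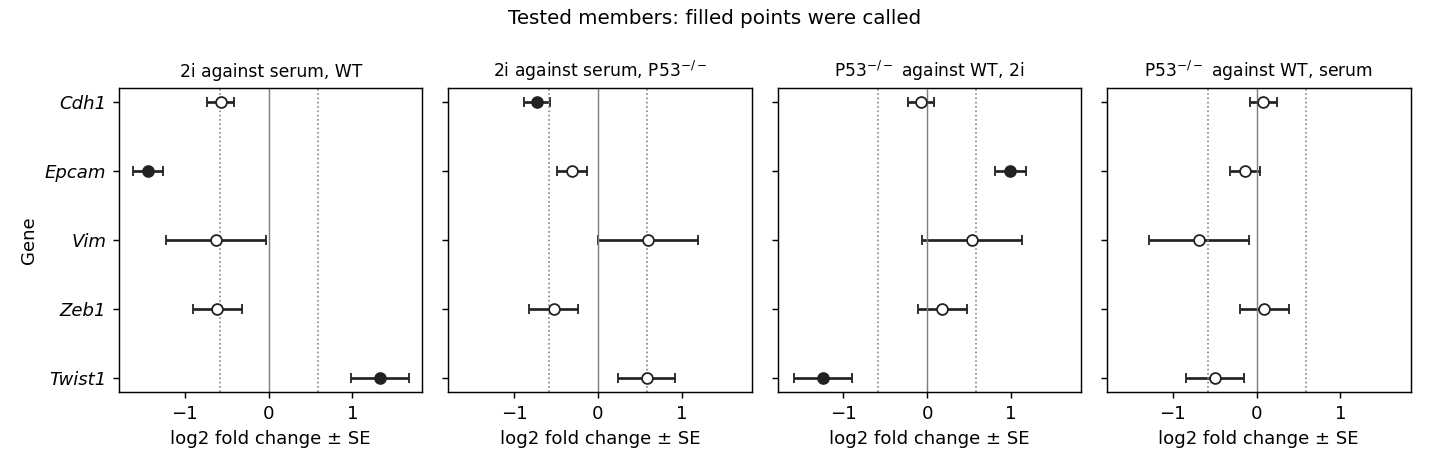
Log2 fold changes (x axes) with their standard errors for the 5 tested genes (y axis) in 4 comparisons, with dotted lines at a fold change of 1.5 and filled points for calls. Epcam (-1.44) and Twist1 (1.33) are called in the WT comparison of 2i with serum, Cdh1 (-0.73) in the P53-/- one, Epcam (0.99) and Twist1 (-1.24) in the P53-/- against WT comparison in 2i, and none in serum.

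Cdh1 was lower in 2i than in serum in both genotypes. The gene lies on chromosome 8, positions 106603351 to 106670246 on the plus strand of GRCm38. It stood at 76.2 and 74.6 FPKM in the WT serum libraries and at 90.8 and 70.04 in P53-/- serum. In WT 2i it stood at 56.2 and 45.7 FPKM and in P53-/- 2i at 48.5 and 47.6. All 4 serum values lay above all 4 values in 2i. The cultures were separated in 81.7% of all tested genes in WT and in 81.8% in P53-/- ESCs. For Cdh1, the genotypes overlapped within each culture. The change in P53-/- ESCs was -0.73 on the log2 scale (SE 0.16, 95% interval -1.09 to -0.36, adjusted p = 0.00466). In WT ESCs it was -0.57 (SE 0.16, interval -0.94 to -0.21, adjusted p = 0.0149), a fold change of 1.49 that stayed just under the fold threshold. These 2 changes are not shown to differ, since the difference was -0.16 (SE 0.22, adjusted p = 0.805). The median of the 675 tested genes of chromosome 8 moved the other way, by 0.14 in WT and 0.20 in P53-/- ESCs. The P53 effect on Cdh1 was -0.08 in 2i (interval -0.44 to 0.29) and 0.08 in serum (interval -0.28 to 0.45). The call in P53-/- ESCs was lost when P53-/- serum library 1, the highest, was left out (-0.54), and WT ESCs gained one without WT 2i library 1 (-0.72) or WT serum library 2 (-0.59).

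Cdh2, which encodes N-cadherin, was near the limit of detection in every library. It stood at 0.257 and 0.198 FPKM in WT serum, 0.320 and 0.148 in P53-/- serum, 0.227 and 0.0771 in WT 2i, with 0.167 and 0.0371 in P53-/- 2i. The groups overlapped in all 4 comparisons, and about 68 fragments in all stood behind the 8 values. In a fit of all genes above 0 in any library, Cdh2 was not called in any of the 5 comparisons (adjusted p from 0.255 to 1.0). The FPKM of Cdh1 was 248 to 1280 times that of Cdh2 within a library. The log2 ratio of Cdh1 to Cdh2, with 0.1 FPKM added to each, was 7.85 ± 0.47 (SD) in the 4 libraries in 2i and 7.90 ± 0.19 in the 4 in serum. The difference of -0.05 did not pass an exact two-sided permutation test over the 70 splits (p = 0.886, and the smallest p possible was 0.0286). The ratio was 7.96 ± 0.41 in the 4 P53-/- and 7.79 ± 0.27 in the 4 WT libraries, a difference of 0.17 with an exact p of 0.543. Adjusted over the 2 tests, both exact p values were 0.886. The splits took no account of genotype in the first test or of culture in the second. A difference in the ratio was not detectable at this depth, and the ratio rested on the pseudocount. With 1 FPKM added, the difference between cultures was -0.51 with an exact p of 0.0286. Cdh2 stayed under 1 FPKM in every library, so this ratio mostly followed Cdh1 alone. All 4 serum values of Cdh1 lay above all 4 in 2i, so this p adds nothing on Cdh2.

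Of 20 other classical and related cadherin genes, only Cdh3, Cdh4 and Cdh24 were expressed highly enough to be tested. Cdh3, which encodes P-cadherin, stood at 3.09 and 3.04 FPKM in WT serum and at 1.43 and 0.838 in WT 2i. It fell in 2i in WT (log2 change -1.40, SE 0.29, adjusted p = 0.00410) and in P53-/- ESCs (-1.68, SE 0.29, adjusted p = 0.00160). Cdh4, which encodes R-cadherin, rose in WT ESCs from 0.638 and 0.445 FPKM in serum to 3.19 and 1.79 in 2i (log2 change 1.98, SE 0.48, adjusted p = 0.00870). In P53-/- ESCs its change was 0.74 (adjusted p = 0.214). Neither responded to loss of P53 with a call in either culture.

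The cytoplasmic partners of cadherins and the nectins, a second adhesion system of adherens junctions, were measured with 16 of 18 genes. In 2i, 4 were called higher and 7 lower in WT ESCs, against 27.2% and 28.6% of all tested genes, with a median log2 change of -0.35 against -0.02. In P53-/- ESCs 3 were higher and 8 lower, against 28.0% and 30.1% (median -0.54 against -0.03). Ctnnd1, which encodes p120-catenin, the stabilizer of cadherins at the membrane, fell from 43.1 and 42.5 FPKM in WT serum to 13.4 and 16.1 in WT 2i (log2 change -1.54, adjusted p = 8.1e-05 by limma). Nectin1 fell by 1.47 and Ajuba, a LIM protein of junctions, by 1.30 on the log2 scale in WT ESCs. Ctnnd2 (1.72), Arvcf (1.24), both of the p120-catenin family, and Lima1 (1.07), an actin-binding protein, rose. Ctnnb1, which encodes beta-catenin and was the most abundant of the list, had a log2 change of 0.03 in WT ESCs (adjusted p = 0.832). After loss of P53 in 2i, 1 gene was called higher and 3 lower, against 4.36% and 5.97% of all genes (median -0.10 against 0.02). Nectin3 rose by 0.68, and Nectin4 (-2.32), Plekha7 (-0.75) and Nectin1 (-0.69) fell. Nectin4 went from 0.811 and 1.29 FPKM in WT 2i to 0.146 and 0.106 in P53-/- 2i, so that this call rested on low values.

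Epcam was lowest in WT 2i and differed between all 4 groups in its range of values. EpCAM is a cell adhesion protein of epithelia that is also a surface marker of undifferentiated ESCs. The gene lies on chromosome 17, positions 87635979 to 87651129 on the plus strand of GRCm38. It stood at 92.4 and 93.7 FPKM in WT serum, 82.3 and 87.1 in P53-/- serum, 68.0 and 68.5 in P53-/- 2i, while WT 2i gave 42.0 and 28.0. In this order no group overlapped the next. Of all tested genes, 47.5% were separated between genotypes in serum, 81.8% between cultures in P53-/- ESCs and 53.6% between genotypes in 2i. The lowest group, WT 2i, was also the one whose libraries differed most, by 1.5-fold, a gap exceeded by 17.8% of tested genes. In WT ESCs Epcam fell 2.71-fold in 2i (log2 change -1.44, SE 0.18, 95% interval -1.86 to -1.02, adjusted p = 0.000379). The change in P53-/- ESCs was -0.31 (SE 0.18, interval -0.73 to 0.11, adjusted p = 0.169). In 2i, Epcam was 1.99-fold higher in P53-/- than in WT ESCs (log2 change 0.99, SE 0.18, interval 0.57 to 1.41, adjusted p = 0.0219). In serum the change was -0.14 (interval -0.56 to 0.28, adjusted p = 0.820). The difference between these P53 effects was 1.13 (SE 0.26, interval 0.54 to 1.72), and did not pass adjustment over all genes (unadjusted p = 0.00236, adjusted p = 0.169). Without WT 2i library 1, the higher one, it was 1.42 and did pass (adjusted p = 0.0254), and without library 2 it was 0.84 (adjusted p = 0.125). Among 13 tested genes that start within 1000000 bases of Epcam, none was called higher and 1 was called lower in P53-/- 2i, and the median change of the 616 tested genes of chromosome 17 was 0.01. The P53 call in 2i was lost without P53-/- 2i library 2 and in a fit of the compared groups only.

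The promoters of Epcam and Twist1, the 2 members called after loss of P53 in 2i, are shown because they moved in opposite directions. Each is the 250 bases before the RefSeq start on the plus strand of GRCm38.p6, 5′ to 3′, for Epcam chr17:87635729-87635978 and for Twist1 chr12:33957421-33957670, with capitals marking CAGGTG or its reverse complement CACCTG, the E-box form bound by Snail and Zeb factors.
Epcam: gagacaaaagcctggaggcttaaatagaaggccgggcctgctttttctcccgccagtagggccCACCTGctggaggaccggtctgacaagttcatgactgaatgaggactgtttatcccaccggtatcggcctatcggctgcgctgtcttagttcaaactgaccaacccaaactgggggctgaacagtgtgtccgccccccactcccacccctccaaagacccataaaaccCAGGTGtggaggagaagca
Twist1: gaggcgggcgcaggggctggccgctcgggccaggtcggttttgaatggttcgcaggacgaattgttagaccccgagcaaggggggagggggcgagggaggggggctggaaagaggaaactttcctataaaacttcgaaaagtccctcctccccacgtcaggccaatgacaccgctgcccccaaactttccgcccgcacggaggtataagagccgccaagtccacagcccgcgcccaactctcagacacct

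The Epcam window held 2 such E-boxes, 187 and 19 bases before the start, and the Twist1 window held none. Of 32851 promoter windows of this length, 17.2% held at least 1. RefSeq windows were found for 5 of the 9 genes, and the Snai1 window held 1 E-box while those of Vim and Zeb2 held none. The P53 half-site consensus, searched on both strands, was in 7.13% of all windows and in neither the Epcam nor the Twist1 window. The windows of Vim and Snai1 held none. Zeb2 has windows of several starts, and overlapping ones held a half-site 76 and 102 bases before their starts. These matches describe letters in a window, and no binding was measured here.

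Other epithelial junction and surface genes moved in both directions with culture. Of 30 genes 27 were tested, and in 2i 11 were called higher and 9 lower in WT ESCs, against 27.2% and 28.6% of all genes, with a median of 0.51 against -0.02. In P53-/- ESCs 11 were higher and 8 lower, against 28.0% and 30.1% (median 0.47 against -0.03). Krt8, a keratin of simple epithelia, rose from 4.77 and 6.31 FPKM in WT serum to 103 and 51.9 in WT 2i (log2 change 3.71, SE 0.44, adjusted p = 0.000294). Cldn4, a claudin of tight junctions, rose from 21.2 and 20.5 to 162 and 94.3 FPKM (2.56), and St14, the membrane protease matriptase, rose by 1.96. In the same libraries the tight junction genes Cgn (-2.59), Cldn6 (-2.08) and Tjp1 (-1.70), which encode cingulin, a claudin and ZO-1, fell. The list therefore did not move as a block, and Cldn4 and Krt8 moved against Epcam in the same comparison.

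After loss of P53 in 2i, 2 genes of that list rose and 1 fell, against 4.36% and 5.97% of all genes, with a median of -0.33 against 0.02. Cldn3, another claudin, stood at 2.78 and 2.44 FPKM in WT 2i and at 8.99 and 8.74 in P53-/- 2i, a 3.31-fold rise (log2 change 1.73, SE 0.31, adjusted p = 0.0204). Cldn6 rose from 0.874 and 1.07 to 2.31 and 4.23 FPKM (1.60), and Marveld3, a tight junction protein, fell from 1.09 and 0.857 to 0.255 and 0.284 FPKM (-1.53). Of the epithelial regulators, 7 of 9 were tested and none was called in that comparison.

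Of the 7 tested regulators of epithelial splicing and transcription, 3 were called higher and 2 lower in 2i in WT ESCs, against 27.2% and 28.6% of all genes (median -0.12 against -0.02). None was higher and 3 were lower in P53-/- ESCs, against 28.0% and 30.1% (median -0.48 against -0.03). Esrp1, a splicing regulator of epithelial cells, fell from 4.92 and 4.93 FPKM in WT serum to 0.200 and 0.204 in WT 2i (log2 change -4.06, adjusted p = 0.000103 by limma), while its paralog Esrp2 rose by 0.59. Elf3, an ETS factor of epithelia and the most abundant of the list, rose from 11.3 and 11.5 to 22.5 and 27.2 FPKM (1.12). Grhl3 rose by 0.61 and Grhl1 fell by 0.91 on the log2 scale, both grainyhead-like factors.

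Vim was abundant in all groups, and with all libraries it was not called in any comparison. It lies on chromosome 2, positions 13573927 to 13582826 on the plus strand of GRCm38. It stood at 50.8 and 57.3 FPKM in WT serum, 30.6 and 36.4 in P53-/- serum, 60.4 and 42.2 in P53-/- 2i, while WT 2i gave 16.0 and 76.1. The 2 WT 2i libraries thus held both the lowest and the highest value of the series. Their 4.72-fold gap was exceeded by 135 of the 12572 tested genes (1.07%). The 95% interval of the P53 effect was -0.85 to 1.91 in 2i and -2.07 to 0.69 in serum, which leaves room for a change of either sign. The P53-/- serum libraries lay below both WT serum libraries, where 47.5% of all tested genes were separated in either direction. This Vim change of -0.69 (SE 0.60) gave an adjusted p of 0.707 by limma. Leaving out WT 2i library 1 turned the sign of the P53 effect in 2i from 0.53 to -0.59, and of the culture effect in WT ESCs from -0.62 to 0.50, neither of them called. Leaving out WT 2i library 2 instead gave calls for both, of 1.65 (adjusted p = 0.0249 by limma) and -1.74 (adjusted p = 0.00163), and for the difference of the P53 effect between the cultures (2.34, adjusted p = 0.0975). Between the cultures in P53-/- ESCs both values in 2i lay above both serum values, where 81.8% of all tested genes were separated. This Vim change was 0.60 (SE 0.60, adjusted p = 0.410 by limma). It was called in the fit of the compared groups only (adjusted p = 0.0701). The result for Vim in WT 2i rested on which of the 2 libraries was kept.

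Genes of mesenchymal cells and their matrix were called in both directions with culture. Of 31 genes 18 were tested, and in 2i 3 were called higher and 10 lower in WT ESCs, against 27.2% and 28.6% of all genes, with a median of -0.61 against -0.02. In P53-/- ESCs 4 were higher and 9 lower, against 28.0% and 30.1% (median -0.89 against -0.03). This list shares 7 genes with the fibroblast and feeder markers. Thy1 fell from 8.21 and 7.55 FPKM in WT serum to 0.972 and 0.343 in WT 2i (log2 change -3.53, adjusted p = 0.000299 by limma). Loxl2, a lysyl oxidase of the matrix, fell by 3.29 and Itga5, the fibronectin receptor subunit, by 2.13 on the log2 scale. Pdgfrb (1.25), a growth factor receptor, and Tpm1 (0.91), a tropomyosin, rose. Sparc, a matrix protein and the most abundant of the list, changed by 0.53, under the fold threshold.

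After loss of P53 in 2i, none of the 18 mesenchymal genes was called higher and 4 were called lower, against 4.36% and 5.97% of all genes (median -0.40 against 0.02). Mmp2, a matrix metalloproteinase, stood at 0.405 and 1.36 FPKM in WT 2i and was listed at 0 in both P53-/- 2i libraries. Col5a1, a fibrillar collagen, fell by 1.08 and Cald1, which encodes caldesmon, by 0.88 on the log2 scale.

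**Figure D3:**
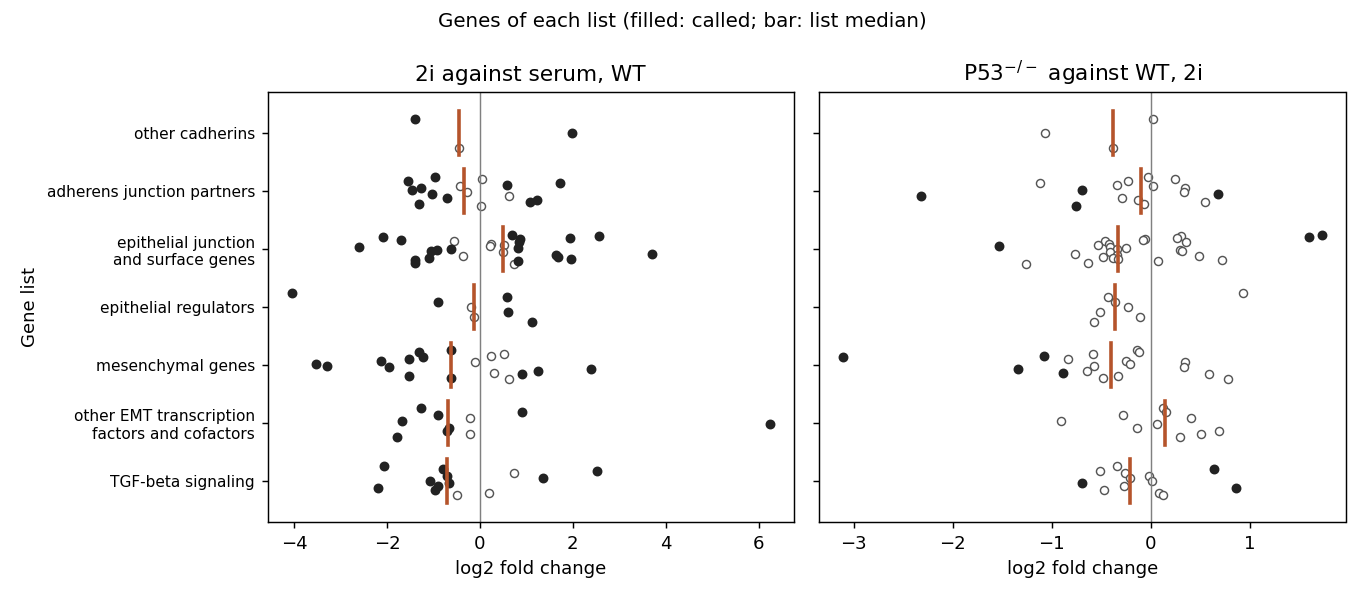
Log2 fold changes (x axes) of the tested genes (points) of 7 gene lists (y axis) in 2i against serum in WT ESCs (left) and in P53-/- against WT ESCs in 2i (right), with called genes filled and list medians as bars. In the left panel the epithelial junction list has 11 genes called higher and 9 lower and the mesenchymal list 3 and 10, and in the right panel the same lists have 2 and 1, and none and 4.

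Twist1, a basic helix-loop-helix factor of mesoderm and neural crest, was highest in WT 2i. The summed level of 9 mesoderm and primitive streak markers was highest there too, at 5.93 FPKM in both libraries. It was 2.61 to 3.51 in P53-/- 2i, 4.21 to 5.04 in WT serum and 3.22 to 3.58 in P53-/- serum. Of these markers, 7 stayed under 1 FPKM in all libraries. The marker T stood at 2.06 and 3.72 FPKM in WT 2i against 0.227 and 0.285 in WT serum. Eomes went the other way in that comparison, at 1.76 and 1.60 against 2.53 and 2.37. The part of these levels in the result was not tested. Twist1 lies on chromosome 12, positions 33957671 to 33959829 on the plus strand of GRCm38, and has a single annotated transcript. It stood at 2.34 and 2.39 FPKM in WT serum, 1.30 and 2.08 in P53-/- serum, 7.21 and 5.14 in WT 2i, with 1.85 and 3.41 in P53-/- 2i. Both WT 2i libraries lay above all 6 others. The WT 2i libraries were separated from WT serum in 81.7% of all tested genes, and from P53-/- 2i in 53.6%. The share of genes with WT 2i above all 6 other libraries was not computed. Estimated fragments were 27 to 50 per library in WT serum, 26 to 31 in P53-/- serum, 43 to 92 in WT 2i, and 29 to 30 in P53-/- 2i. The rise in 2i in WT ESCs was 2.51-fold (log2 change 1.33, SE 0.34, 95% interval 0.54 to 2.12, adjusted p = 0.0111), against a median of -0.38 for the 456 tested genes of chromosome 12. The change in P53-/- ESCs was 0.58 (SE 0.34, interval -0.21 to 1.37, adjusted p = 0.174), and among the alternatives it was called only without P53-/- 2i library 1 (adjusted p = 0.0524). In 2i, Twist1 was 2.37-fold lower in P53-/- than in WT ESCs (log2 change -1.24, SE 0.34, interval -2.04 to -0.45, adjusted p = 0.0722). This call was lost under 7 of 14 alternatives, among them leaving out P53-/- 2i library 1, WT 2i library 1 or WT 2i library 2, and an adjusted p under 0.05. In serum the change was -0.49 (interval -1.29 to 0.30, adjusted p = 0.626), and the difference between the P53 effects was -0.75 (SE 0.48, adjusted p = 0.552).

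Zeb1, a zinc finger and homeodomain repressor of Cdh1, was low in all groups. It stood at 2.16 and 2.43 FPKM in WT serum, 1.98 and 3.01 in P53-/- serum, 1.21 and 1.76 in WT 2i, with 1.52 and 1.83 in P53-/- 2i. All 4 serum values lay above all 4 values in 2i, as did those of Cdh1. The cultures were separated in 81.7% of all tested genes in WT and in 81.8% in P53-/- ESCs. Whether the levels of Zeb1 and Cdh1 are linked was not tested. The Zeb1 change in 2i was -0.61 (SE 0.29, interval -1.29 to 0.07, adjusted p = 0.106 by limma) in WT ESCs. It was -0.52 (SE 0.29, adjusted p = 0.153) in P53-/- ESCs, and neither was called. The WT change was called without WT 2i library 2 (-0.86), after quantile normalization (-0.82) and without the trend in limma, and the P53-/- change without P53-/- serum library 1 (-0.81). The 300 tested genes of chromosome 18, where Zeb1 lies, had medians of -0.32 and -0.47 in these comparisons. The P53 effect was 0.18 in 2i (interval -0.50 to 0.86) and 0.09 in serum (interval -0.59 to 0.77).

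The remaining factors were measured with a handful of fragments. Snai1, the Snail factor, stood at 0.294 and 0.372 FPKM in WT serum, 0.316 and 0.699 in P53-/- serum, 0.646 and 0.494 in WT 2i, with 0.401 and 0.237 in P53-/- 2i. Its P53-/- 2i libraries lay below those of WT 2i, on about 8 against about 12 fragments, where 53.6% of tested genes were separated. Snai1 was not called in any comparison in the limma fit of all genes above 0 (adjusted p from 0.288 to 0.819). Snai2, the Slug factor, was detected with about 2 fragments in WT serum, 8 in P53-/- serum, 1 in WT 2i and none in P53-/- 2i. Its 2 P53-/- serum values, 0.204 and 0.162 FPKM, were the highest of the series, on about 5 and 3 fragments. Between genotypes in serum, 47.5% of tested genes were separated in either direction. The Snai2 change between WT and P53-/- serum in the limma fit of all genes above 0 had an unadjusted p of 0.0266 and an adjusted p of 0.449.

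Zeb2, the paralog of Zeb1, was found almost only in serum. It stood at 0.114 and 0.187 FPKM in WT serum and at 0.373 and 0.120 in P53-/- serum. It was listed at 0 in both WT 2i libraries, and at 0.0339 and 0 FPKM in P53-/- 2i. In fragments, this was about 26, 52, none and 3. In the limma fit of all genes above 0, Zeb2 was called lower in 2i in WT (adjusted p = 0.0381) and P53-/- ESCs (adjusted p = 0.0233). Snai2 was called lower there in P53-/- ESCs (adjusted p = 0.00725). Of the 18380 genes of that fit, 3976 were called lower in WT and 4338 in P53-/- ESCs. At values this near 0, the size of these changes depends on the 0.1 FPKM added. No fold is given for groups listed at 0. An overlapping gene on the other strand, Zeb2os, had a mean of 0 FPKM.

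**Figure D4:**
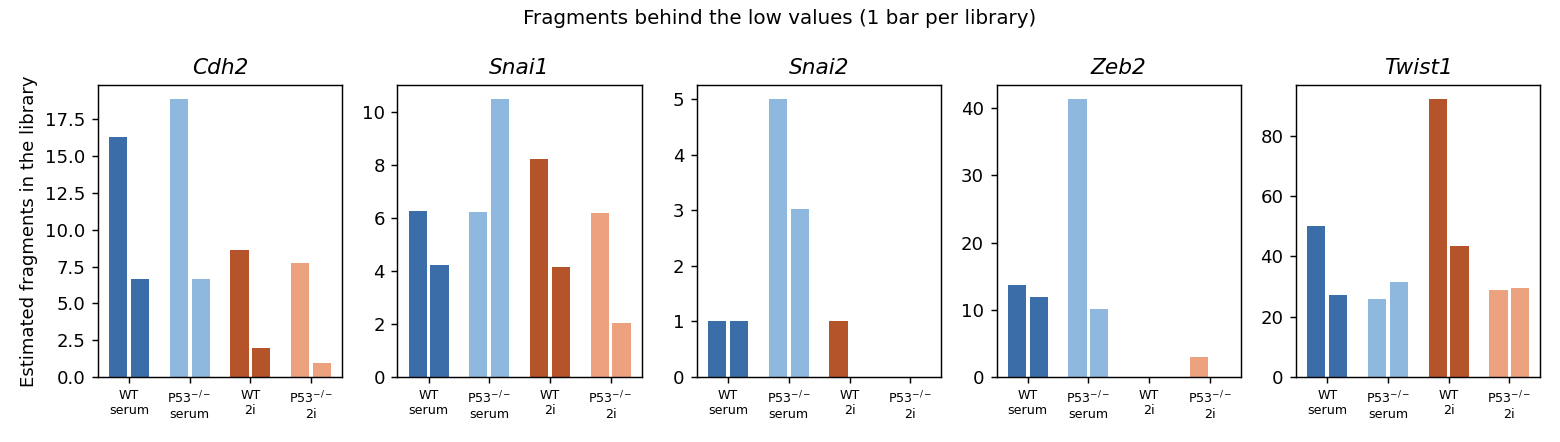
Estimated fragments (y axes, linear from 0) behind the FPKM values of Cdh2, Snai1, Snai2, Zeb2 and Twist1, with 1 bar per library and 2 bars per group on the x axis. Snai2 rests on at most 5 fragments in a library, and Zeb2 has none in 3 of the 4 libraries in 2i.

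Related transcription factors and cofactors were called with culture. Of 15 genes 10 were tested, and in 2i 2 were called higher and 6 lower in WT ESCs, against 27.2% and 28.6% of all genes, with a median of -0.69 against -0.02. The P53-/- ESCs had 2 higher and 5 lower, against 28.0% and 30.1% (median -0.42 against -0.03). Gsc, a homeobox factor of the organizer, was listed at 0 in both WT serum libraries and stood at 6.85 and 8.14 FPKM in WT 2i. Tcf3, an E protein that partners Twist factors, rose by 0.90. Ctbp2, a corepressor recruited by Zeb1 and the most abundant of the list, fell from 92.3 and 102 FPKM to 25.1 and 31.5 (log2 change -1.78, adjusted p = 9.33e-05 by limma). Prrx2 (-1.68) and Snai3 (-1.27), a homeobox and a Snail family factor, fell too. None of the 10 was called after loss of P53 in 2i, against 4.36% of all genes called higher and 5.97% lower. Their median there was 0.14 against 0.02.

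TGF-beta, a main inducer of the transition, signals through the receptors Tgfbr1 and Tgfbr2 and the Smad proteins. Of 16 genes of this pathway 13 were tested, and in 2i 2 were called higher and 8 lower in WT ESCs, against 27.2% and 28.6% of all genes (median -0.71 against -0.02). The P53-/- ESCs had 3 higher and 8 lower, against 28.0% and 30.1% (median -0.87 against -0.03). Tgfbr2 rose from 0.932 and 0.581 FPKM in WT serum to 4.46 and 4.96 in WT 2i (log2 change 2.52, adjusted p = 0.00058 by limma), and Smad3 rose by 1.37. The ligand Tgfb1 fell from 2.97 and 2.53 to 0.526 and 0.626 FPKM (-2.08), Skil, a repressor of Smad activity, from 26.4 and 28.2 to 4.84 and 7.14 FPKM (-2.20), and Smad4 by 1.08 on the log2 scale. Tgif1, a corepressor and the most abundant of the list, fell by 0.98 on that scale. After loss of P53 in 2i, 2 were called higher and 1 lower, against 4.36% and 5.97% of all genes (median -0.21 against 0.02). Skil (0.87) and Tgfbr1 (0.64) rose and the inhibitory Smad7 (-0.69) fell. The hairpin genes of the miR-200 family, whose products target Zeb1 and Zeb2, were listed at 0 in all libraries, apart from Mir200a at 151 FPKM in 1 WT serum library. Of 5 hairpin genes 1, Mir200a, was tested, as it passed the filter through that library alone, and it was not called. FPKM scales by transcript length, so a value for a short hairpin may rest on few fragments. The mature products were not measured here.

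In serum, loss of P53 gave no call by limma among the 95 tested genes of these 8 lists. Of all genes, 0.135% were called higher there and 0.883% lower. An unadjusted p under 0.05 was found for 13 of the 95, against 11.3% of all genes. The difference of the P53 effect between the cultures gave no call either, against 0.207% of all genes. For it, 26 of the 95 were under that unadjusted level, a larger share than the 13.1% of all genes. Whether the lists differ from all genes in this was not tested. In 2i, 5 of the 95 were called higher and 9 lower after loss of P53, against 4.36% and 5.97% of all genes.

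Genes whose levels followed the members closely over the 8 libraries are given as a description, from 8135 tested genes with a mean of at least 5 FPKM. Over the libraries, log2 levels of Cdh1 had a Pearson correlation of 0.990 with Nacc1, 0.986 with Dag1, which encodes dystroglycan, and 0.984 with Ano6. Those of Epcam had 0.980 with Ciao2a, 0.975 with Hccs and 0.974 with Selenot. For Vim the values were 0.926 with Psmd14 and 0.861 with Prorsd1, and for Cdh2, at its few fragments, 0.969 with Wdr70, 0.950 with Rpl30 and 0.927 with Nf2. The 8 points share culture, genotype and depth.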

How the data were processed

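RNA-seq was measured in G1-sorted WT and P53-/- ESCs in serum and 2i, from total RNA depleted of ribosomal RNA, with random primers and a stranded kit. The authors deposited FPKM values per gene symbol, 1 column per library. The submitters' processing notes name STAR, Cufflinks, DESeq2 and mm9, without versions or roles, and whether counting used strand is not given in the sources used here. Columns name genotype and culture only, so libraries are numbered in column order. Samples of P21-/- ESCs and their own WT 2i controls were not analysed here.

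Genes with a mean of at least 0.5 FPKM (12572) were tested on log2(FPKM + 0.1) with limma 3.58.1 (R 4.3.3), in 1 fit of 4 groups with a trend and Benjamini-Hochberg adjustment over all genes. This scale understates changes of low genes. Calls needed a fold change over 1.5 with an adjusted p below 0.1. Of 9 members, 5 passed the filter, and Cdh2, Snai1, Snai2 and Zeb2 did not. In each library, 92.4% to 99.1% of the summed FPKM belonged to small RNA genes.

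Positions come from GENCODE M21 on GRCm38, which is not the build of the notes, and 98.2% of symbols matched. Fragments were estimated from FPKM steps of genes with 1 transcript, and carry a factor common to the libraries. They are approximate, for genes with several transcripts and for those with 1. Among members with 1 transcript, the largest distance from a whole number was 0.032 for Snai2, 0.49 for Snai1 and 0.46 for Twist1. Any limits read from the estimates cover counting error only. All 9 members were named whatever their values, and from each list, per comparison, up to 3 called genes per direction and the gene with the highest mean. Some genes that this rule names are not reported here. The members and lists were chosen with earlier results of these data known. The code was tested on simulated data. Alternatives were other pseudocounts, filters, scalings, fits and thresholds, and each library left out in turn. Other steps used pandas 2.3.3, matplotlib 3.10.9 and numpy 2.4.6 in Python 3.11.15.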

Additional observations from a re-analysis of the deposited data

Results flagged for a closer look

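The P53 effects on Epcam had opposite signs in the 2 cultures, and only the one in 2i was called. Both P53-/- 2i libraries lay above both WT 2i libraries (log2 change 0.99), and both P53-/- serum libraries lay below both WT serum libraries (-0.14, adjusted p = 0.820), as 47.5% of all tested genes were separated there in one direction or the other. The difference between these effects was 1.13, with an unadjusted p of 0.00236 and an adjusted p of 0.169 by limma, and so did not pass the threshold. The WT 2i libraries stood at 42.0 and 28.0 FPKM. Without the first the difference was 1.42 (adjusted p = 0.0254), and without the second it was 0.84 (adjusted p = 0.125). Only groups of 2 libraries were available, so no library could be examined as an outlier within its group.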

How the results depend on the processing

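No paired analysis was possible because the columns carry no replicate numbers. Alternatives that changed only the filter, the trend, the threshold or the groups fitted left each log2 fold change as it was. In the counts that follow, they could change a call but not a direction. Calls among all genes changed with these settings too. For loss of P53 in 2i, the main fit called 1299 of 12572 genes. The fit of the compared groups only called 193, the adjusted p under 0.05 left 771, and the fit without the trend called 1163. With all genes above 0, 1378 of 18380 were called. Of 365 recomputed log2 fold changes of the tested members, 333 kept their direction and side of the threshold, 10 lost a call, 12 gained one and 10 changed sign, all 10 on leaving out 1 library. For loss of P53 in 2i, the count of 2 called members became 1 with all genes above 0, without the trend and at an adjusted p under 0.05, 0 in a fit of the compared groups only, and 1 to 2 on leaving out 1 library. The Epcam change there ran from 0.70 to 1.29 (adjusted p 0.00523 to 0.159) and the Twist1 change from -1.66 to -0.82 (0.0563 to 0.254). For 2i against serum, counts were 2 to 4 in WT ESCs and 1 to 2 in P53-/- ESCs on leaving out 1 library, and in P53-/- ESCs 3 with all genes above 0 and 2 in the fit of compared groups only. For the difference of P53 effects the count was 0 to 1 on leaving out 1 library, Epcam without WT 2i library 1 or Vim without library 2.

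Signs turned within these ranges on leaving out 1 library, without a call at the turned sign. For loss of P53 in 2i, Cdh1 ran from -0.23 to 0.073, Vim from -0.59 to 1.65 and Zeb1 from -0.071 to 0.43, and each turned without WT 2i library 1. In serum, Cdh1 ran from -0.11 to 0.27 and Zeb1 from -0.20 to 0.38. For the difference of P53 effects, Cdh1 ran from -0.34 to 0.030 and Zeb1 from -0.20 to 0.38. Vim in 2i against serum in WT ESCs ran from -1.74 to 0.50, and turned without WT 2i library 1.

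The Cdh1 to Cdh2 log2 ratio, 2i minus serum, was -0.51 with a pseudocount of 1 (exact p = 0.0286), 0.37 with 0.01, 0.35 after quantile normalization and -0.25 to 0.087 on leaving out 1 library. The pseudocount decides it, as Cdh2 lies near 0, and with 1 FPKM added the ratio mostly follows Cdh1. With an arm of 1 library, its spread was assumed to be that of the other groups. Depth limits Snai1, Snai2, Zeb2 and Cdh2.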
